A study of Sus scrofa with 2 samples.

Results

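Cytochrome P450 genes were followed through the nuclei of the newborn pig olfactory mucosa. A gene was taken when its symbol in the count tables was CYP followed by a digit and its unique molecular identifiers (UMIs, each marking 1 captured transcript) summed to at least 20 over both tables. Of 25880 rows, 38 carried such a symbol and 32 reached the threshold, with 80309 UMIs in all. CYP26A1 with 20 UMIs and CYP2W1 with 25 lay just inside it, and CYP4F22 with 16 and CYP27C1 with 7 just outside. CYP17A1, CYP26C1, CYP8B1 and CYP21A2 had 5, 3, 1 and 0 UMIs. There were 22 members with at least 100 UMIs and 10 with 20 to 99.

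Single-nucleus RNA sequencing in 10x Genomics droplets was done on frozen olfactory tissue of newborn Sus scrofa piglets. The wild type library came from the sample labelled wild type piglet and the other from the sample labelled CFTR knock out piglet, whose protocol calls such animals CFTR-null. CFTR encodes the epithelial chloride and bicarbonate channel, and the title of the study asks how its loss affects progenitor cells and the olfactory system. Neither label names an age beyond newborn, a strain, the allele or a treatment, and neither says whether tissue of several animals was pooled. With 1 library per genotype no difference could be tested, and every comparison below is between these libraries.

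Cytochrome P450 enzymes carry a haem group and insert an oxygen atom into small hydrophobic molecules, using electrons from cytochrome P450 reductase (POR) in the endoplasmic reticulum or from ferredoxin in mitochondria. Families 1 to 3 mostly oxidise drugs, pollutants and odorants, whereas others build or break down fatty acids, sterols, bile acids and vitamins A and D. The olfactory mucosa is known as a tissue rich in P450 enzymes, chiefly in sustentacular cells, the columnar support cells around the sensory neurons, and in Bowman glands, which secrete the mucus.

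Filtering left 4536 wild type nuclei with 17128569 UMIs (median 2966 per nucleus) and 5761 knockout nuclei with 15125185 UMIs (median 2093). Mitochondrial transcripts made up 2.83% and 1.31% of the UMIs. Nuclei were clustered without any P450 gene and named from marker lists, so each class name below means nuclei like that type. Levels are UMIs per 1000000 UMIs of the class (CPM), with exact Poisson 95% intervals that cover counting error only. They are not scaled to gene length and are compared within a gene, not between genes. CFTR itself stood at 88.9 CPM in the wild type library and 12.7 CPM in the knockout.

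The sustentacular nuclei fell into 2 types. The type led by carboxypeptidase M (the CPM gene, written out below) had 551 wild type and 260 knockout nuclei. The type led by ACSM3 and GLDN had 189 and 324. Carboxypeptidase M stood at 2500 and 1744 CPM in the carboxypeptidase M type and at 560 and 501 in the ACSM3 and GLDN type, so the types differ by degree in this marker. Ciliated nuclei numbered 32 in the wild type and 463 in the knockout library, and horizontal basal nuclei 107 and 38. The makeup of the libraries thus differed, and levels over all nuclei are given beside levels within a class. Summed, the members supplied 0.821% of UMIs in the carboxypeptidase M type of the wild type library and 0.397% of those in the knockout library, and 0.620% and 0.306% in the ACSM3 and GLDN type. In mature neurons they supplied 0.0900% and 0.102%.

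Of the 32 members, 17 had the same highest class in both libraries, against 38.5% of the 16259 genes with at least 20 UMIs. Those genes were not matched to the members in depth. Some of the 17 rest on few UMIs in that class, such as CYP7A1 with 2 and 1 and CYP2S1 with 7 each. For 4 of the 32 the highest class was sustentacular in both libraries, against 2.74% of the 16259 genes, namely CYP2A19, CYP2F1, CYP4V2 and CYP27A1. The heat map of all members by class shows these 4, and also CYP3A29, among the bright cells at the left of each panel. The ciliated, fibroblast and horizontal basal genes have bright cells in other columns, and CYP20A1 forms an even band.

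**Figure D1:**
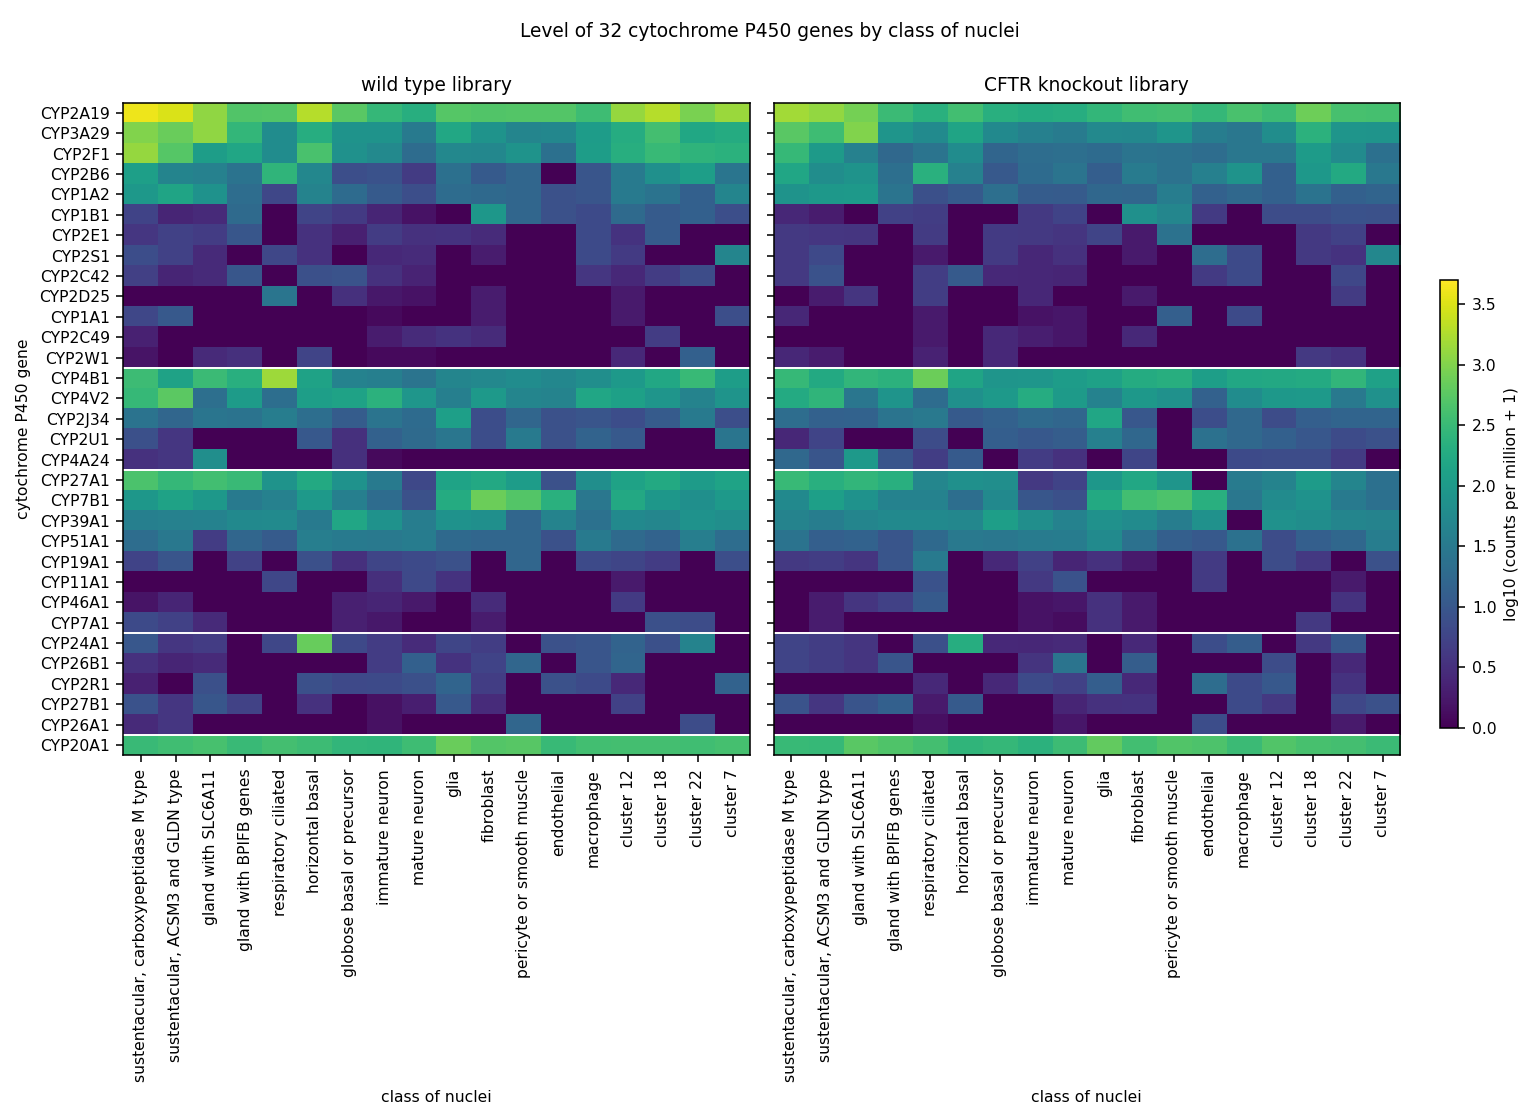
Level of each of the 32 P450 genes (rows, grouped by role with white lines) in 18 classes of nuclei (columns) in the wild type library (left) and the CFTR knockout library (right), as log10 of CPM plus 1; numbered clusters were not named, cluster 22 because a basal marker led it although it held 5 markers of respiratory secretory cells. CYP2A19 is brightest in the carboxypeptidase M type of sustentacular nuclei, at 4037 CPM in the wild type and 1556 in the knockout library, and CYP24A1 is bright in horizontal basal nuclei, at 697 and 204.

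Among the 13 members of families known for foreign compounds, CYP2A19, a pig enzyme of the CYP2A subfamily that oxidises nicotine-like and other small molecules, had the most UMIs, 20307 in the wild type and 7684 in the knockout table. It stood at 4037 CPM (3943 to 4133) in wild type carboxypeptidase M type nuclei and at 1556 (1462 to 1656) in those of the knockout library. In the ACSM3 and GLDN type it stood at 3118 (2990 to 3250) and 1250 (1184 to 1319). Both types were thus lower in the knockout library, by a log2 ratio of -1.38 (-1.47 to -1.28) and -1.32 (-1.42 to -1.22), with no overlap of the intervals. Some CYP2A19 was counted in every class ranked, down to 210 CPM in wild type mature neurons and 190 in knockout immature neurons. Of 16 other classes, 7 were at least 2-fold lower in the knockout library, among them horizontal basal nuclei at 1964 and 377 CPM. The part of sustentacular RNA in these classes was not tested. Mature neurons had 210 and 199 CPM as a whole, but they fell into 2 clusters, which held 758 and 139 of the wild type and 130 and 793 of the knockout nuclei. Within these clusters CYP2A19 was lower in the knockout library, at 196 (181 to 211) and 125 (98.6 to 155) in one and at 355 (294 to 425) and 220 (201 to 241) in the other, with no overlap of the intervals. An unranked shallow cluster (183 nuclei in the wild type library and 17 in the other) held 8430 CPM in the wild type library. Without it and a further shallow cluster (32 and 953 nuclei) the log2 ratio over all nuclei was -1.26, against -1.25 with them.

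CYP2F1, of a subfamily known from lung and nose that oxidises naphthalene-like molecules, had the lowest ratio of the knockout to the wild type level of all 32 members over all nuclei. In the carboxypeptidase M type it stood at 1314 CPM (1261 to 1369) in wild type nuclei and 305 (264 to 351) in knockout nuclei. In the ACSM3 and GLDN type it stood at 536 (484 to 593) and 104 (85.9 to 125). The log2 ratios were -2.11 (-2.32 to -1.90) and -2.36 (-2.68 to -2.06). The lower knockout level was not limited to sustentacular nuclei. Of the 14 other classes with at least 20 CYP2F1 UMIs, 12 were at least 2-fold lower in the knockout library with an interval below 0, among them both gland classes, glia, macrophages, precursors and ciliated nuclei. Immature neurons had 54.7 and 20.1 CPM, and the gland class with SLC6A11 115 and 41.0. The remaining 2 were fibroblasts, at 50.2 and 25.4 CPM, and mature neurons, at 19.4 and 21.8, a log2 ratio of 0.17 (-0.34 to 0.67). Within both clusters of mature neurons the intervals also overlapped, at 17.8 and 17.3 CPM in one and 36.1 and 23.0 in the other. The sustentacular marker carboxypeptidase M stood at 150 and 37.1 CPM in immature neurons and at 158 and 38.3 in the gland class with SLC6A11. It stood at 73.5 and 35.2 in glia, 347 and 312 in macrophages and 139 and 149 in precursors. ACSM3 stood at 73.2 and 69.6 in immature neurons and at 266 and 610 in the gland class with SLC6A11. It stood at 31.9 and 44.5 in glia, 79.7 and 73.7 in macrophages and 112 and 175 in precursors. GLDN stood at 19.9 and 9.79 in immature neurons and at 12.4 and 68.4 in the gland class with SLC6A11. In glia GLDN had 12.3 and 16.4, in macrophages 45.6 and 11.3 and in precursors 12.2 and 36.4. The part of sustentacular RNA in these counts was not tested. In the wild type library 57.3% of all CYP2F1 UMIs lay in carboxypeptidase M type nuclei, against 27.7% in the knockout library.

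The share of nuclei with a UMI followed the same order for both genes. CYP2F1 was seen in 79.1% of wild type and 29.6% of knockout carboxypeptidase M type nuclei, at median depths of 2545 and 2149 UMIs. When each nucleus was thinned to 1000 UMIs, leaving out shallower nuclei, the shares were 59.6% (Clopper-Pearson 55.3 to 63.8, 535 nuclei) and 15.1% (10.8 to 20.3, 238 nuclei). In the ACSM3 and GLDN type the thinned shares were 30.2% and 9.06%. Mature neurons, given for comparison, had 2.19% and 2.37% after thinning, at median depths of 3768 and 2849 UMIs before it. Whether these neuronal UMIs are RNA of other cells was not tested. After thinning, CYP2A19 was seen in 87.1% and 70.2% of carboxypeptidase M type nuclei and in 89.9% and 68.1% of the other type, against 182 of 868 wild type and 191 of 887 knockout mature neurons (21.5% of the latter). All sustentacular shares of both genes were thus above the neuronal share of their own library.

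CYP3A29, a pig member of the CYP3A subfamily that oxidises many drugs and steroids, was highest in the gland class with SLC6A11, an epithelial class like Bowman glands. There it stood at 1201 CPM (1112 to 1295) in wild type nuclei and 1012 (911 to 1120) in knockout nuclei, a log2 ratio of -0.25 (-0.43 to -0.06). In the carboxypeptidase M type of sustentacular nuclei it stood at 987 and 568, a log2 ratio of -0.80 (-0.96 to -0.63). In the ACSM3 and GLDN type it stood at 706 and 359, a log2 ratio of -0.97 (-1.17 to -0.78). The interval in the gland class does not meet those of the sustentacular types, though a difference between classes was not tested. Over all nuclei the log2 ratio was -0.98, and it passed 2-fold, at -1.08, with median-ratio size factors. It was -0.74 with class levels weighted by the UMIs per class of the wild type library, and -0.65 with equal weights of classes. RefSeq (assembly Sscrofa11.1) places CYP3A46 directly beside CYP3A29, and reads shared between such copies could not be separated here.

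CYP1A2, an enzyme induced by dioxin-like compounds through the aryl hydrocarbon receptor, was highest in ACSM3 and GLDN type nuclei of the wild type library, at 145 CPM (118 to 175). The knockout library had 92.2 (74.9 to 112) there and 98.5 (69.0 to 136) in the gland class with SLC6A11. These 2 knockout values cannot be ordered within their intervals. Its neighbour CYP1A1 had 22 and 12 UMIs in the tables and was highest in the ACSM3 and GLDN type of the wild type library, with 7 UMIs.

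CYP2B6, the table's name for a CYP2B enzyme of drug oxidation, was highest in ciliated nuclei, at 261 CPM (193 to 343, 32 nuclei) in the wild type and 224 (205 to 244, 463 nuclei) in the knockout library. Next came the carboxypeptidase M type of sustentacular nuclei in the wild type library, at 122 CPM (106 to 140), and in the knockout library cluster 22, which held secretory markers, at 175 (152 to 201). The intervals of these classes overlap in both libraries, since cluster 22 had 119 (71.7 to 186) in the wild type and the carboxypeptidase M type 156 (127 to 190) in the knockout library. CYP1B1, which oxidises oestrogens and polycyclic hydrocarbons, was a fibroblast gene in both libraries, at 89.4 CPM (72.6 to 109) and 69.8 (55.7 to 86.3). CYP2S1 was highest in a small cluster with MMRN1, RELN and KDR, at 46.8 CPM in the wild type and 51.2 in the knockout library, from 7 UMIs each. CYP2E1, the ethanol-oxidising enzyme, had 56 and 46 UMIs in the tables, and its highest classes rested on 3 UMIs in the wild type and 2 in the knockout library.

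The other xenobiotic members were sparse. CYP2D25 had 15 and 22 UMIs and was highest in ciliated nuclei of both libraries, with 5 and 9 UMIs. CYP2C42 had 52 and 40 UMIs, and CYP2C49 21 and 12, with at most 4 UMIs in the highest class. CYP2W1 had 11 and 14.

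Among the 5 members that act on fatty acids and eicosanoids, CYP4V2, a fatty acid hydroxylase whose loss causes a crystalline retinal dystrophy in people, was highest in the ACSM3 and GLDN type. It stood at 591 CPM (536 to 650) in wild type nuclei and 263 (234 to 296) in knockout nuclei, a log2 ratio of -1.17 (-1.39 to -0.94). The carboxypeptidase M type had 305 and 181. Immature neurons also carried it, at 235 (220 to 250) and 197 (178 to 218), which was 34.3% of its wild type UMIs. Mature neurons had 86.0 and 103. Pooled over their clusters, which the libraries fill unequally, the neuronal levels differed less between the libraries than the sustentacular ones. This difference was not tested.

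CYP4B1, which hydroxylates medium-chain fatty acids and activates some airway toxins, was highest in ciliated nuclei in both libraries. It stood at 1459 CPM (1293 to 1640) in the 32 wild type nuclei, of which 29 had a UMI, and at 750 (716 to 785) in the 463 knockout nuclei, of which 435 had one. Sustentacular carboxypeptidase M type nuclei had 347 and 305, and the gland class with SLC6A11 332 and 273. In classes with little of it the knockout library was higher, with 25.4 and 111 CPM in mature neurons, 38.7 and 86.1 in immature neurons, and 52.0 and 191 in fibroblasts. The mature neuron values pool clusters that the libraries fill unequally. Beside these values, ciliated nuclei were 32 of 4536 in the wild type and 463 of 5761 in the knockout library, and FOXJ1, a regulator of ciliated cells, stood at 4.56 and 36.9 CPM in fibroblasts and at 9.18 and 20.7 CPM in mature neurons. DNAH9, a dynein of motile cilia, stood at 15.5 and 52.5 CPM in fibroblasts but went the other way in mature neurons (492 and 451) and immature neurons (228 and 213). The part of free ciliated RNA in the CYP4B1 values was not tested.

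CYP2B6 showed a like pattern, at 3.41 and 25.6 CPM in mature neurons and at 10.0 and 33.6 CPM in fibroblasts, with a log2 ratio of -0.22 (-0.64 to 0.23) in ciliated nuclei. Its mature neuron values pool the same clusters. Over all nuclei the log2 ratio of CYP4B1 was 1.20 and that of CYP2B6 1.47. When the class levels of both libraries were weighted with the UMIs per class of the wild type library, a choice made after the data were seen, they were 0.44 and 0.60.

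**Figure D2:**
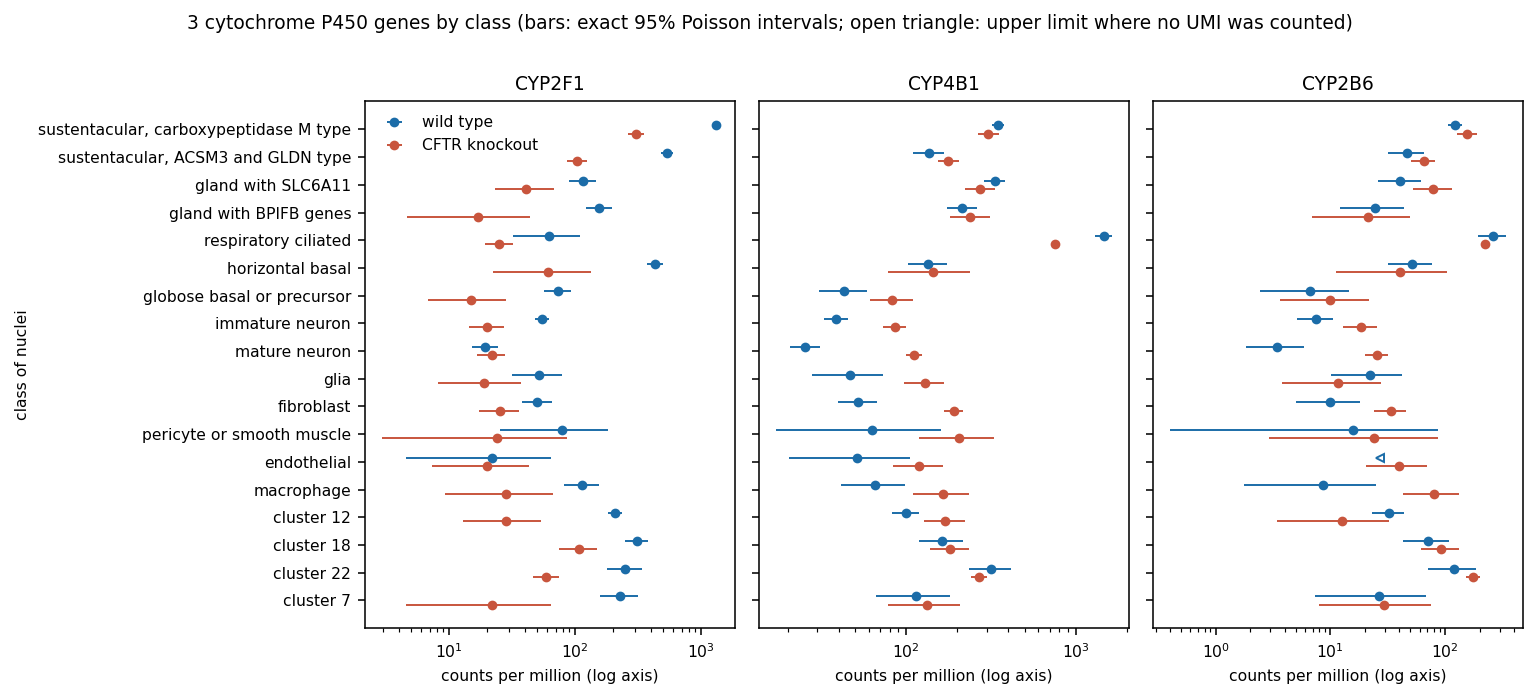
Level of CYP2F1, CYP4B1 and CYP2B6 (panels) in each of 18 classes (rows) in the wild type (blue) and the CFTR knockout library (red), in CPM on a log axis; bars are exact 95% Poisson intervals and the open triangle is an upper limit where no UMI was counted. CYP2F1 is lower in the knockout library in both sustentacular types (1314 and 305, 536 and 104) and in most other classes, with overlapping intervals in mature neurons (19.4 and 21.8), whereas CYP4B1 is lower in ciliated nuclei (1459 and 750) and higher in mature neurons (25.4 and 111).

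CYP4A24, a pig fatty acid omega-hydroxylase, was nearly restricted to the gland class with SLC6A11 in the wild type library, with 37 of its 47 UMIs there (78.7%). The class held 65.7 CPM (46.3 to 90.6) in wild type nuclei and 101 (71.3 to 139) in knockout nuclei, a log2 ratio of 0.62 (-0.07 to 1.32). In the knockout library that class held 35.6% of its 104 UMIs, and the carboxypeptidase M type of sustentacular nuclei had 11 UMIs (95% interval 8.50 to 30.5 CPM) against 4 in the wild type (0.632 to 5.93 CPM). CYP2J34, of the subfamily that makes epoxides of arachidonic acid, was a glial gene, at 123 CPM (90.9 to 162) and 155 (120 to 197). CYP2U1, another arachidonic acid hydroxylase, was spread thinly, with 11 and 17 UMIs in glia (intervals of 13.5 to 48.2 and 23.2 to 63.8 CPM).

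Among the 8 members that act on sterols, steroids and bile acids, CYP27A1, the mitochondrial sterol 27-hydroxylase, was highest in the carboxypeptidase M type. It stood there at 442 CPM (411 to 475) in wild type nuclei and 310 (268 to 356) in knockout nuclei. The gland class with SLC6A11 followed at 382 and 273, and fibroblasts had 170 and 166. The sustentacular and gland levels were lower in the knockout library by log2 ratios between -0.51 and -0.42, and the fibroblast ratio was -0.03 (-0.33 to 0.26). In immature neurons CYP27A1 had 139 UMIs in the wild type and 6 in the knockout library (32.6 and 3.09 CPM). Of the 139, 129 lay in 1 of the 2 immature clusters, where the level was 69.1 CPM in the wild type and 8.07 in the knockout library while the sustentacular marker carboxypeptidase M stood at 306 and 83.4. ACSM3, the marker of the other sustentacular type, stood there at 119 (104 to 136) and 145 (109 to 190). The part of sustentacular RNA in that cluster was not tested.

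CYP7B1, the oxysterol 7-hydroxylase, marked fibroblasts and pericytes or smooth muscle. Fibroblasts had 737 CPM (687 to 790) and 374 (341 to 410), a log2 ratio of -0.98 (-1.15 to -0.81). Pericytes or smooth muscle had 516 (355 to 724) and 457 (324 to 628), from 33 and 38 UMIs, so that class did not separate the libraries. CYP7B1 was also present in sustentacular nuclei, with more in the ACSM3 and GLDN type (136 and 120) than in the carboxypeptidase M type (88.7 and 55.8).

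CYP39A1, which hydroxylates 24-hydroxycholesterol, was highest in globose basal or precursor nuclei, the dividing parents of the neurons, at 154 CPM (129 to 181) and 117 (91.7 to 148). Its log2 ratio there was -0.39 (-0.82 to 0.03). CYP51A1, the demethylase of cholesterol synthesis, was low and spread over the classes. Mature neurons held 34.9 and 34.2 CPM. Its ratio in the ACSM3 and GLDN type, a log2 value of -1.28, rests on 21 and 13 UMIs.

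CYP19A1, the aromatase that makes oestrogens, had 91 and 114 UMIs in the tables. In the knockout library 78 of its 108 UMIs after filtering (72.2%) lay in ciliated nuclei, at 32.7 CPM (25.8 to 40.8), in 50 of 463 nuclei. The 32 wild type ciliated nuclei held none. With that count of 0 set to 3 counts (15.6 CPM), the knockout level was 2.09-fold higher, which is not a lower bound. The exact upper limit for 0 UMIs in wild type ciliated nuclei was 19.2 CPM, below the knockout interval. RefSeq lists CYP19A3 and CYP19A2 on either side of CYP19A1, and these copies could not be told apart in the counts. CYP46A1, the cholesterol 24-hydroxylase, had 22 and 38 UMIs and was highest in knockout ciliated nuclei, with 24 UMIs against 0 in the wild type, where the limit of 3 counts lies above the knockout level. CYP11A1, which cuts the side chain of cholesterol, had 35 and 51 UMIs, of which mature neurons held 21 and 22. CYP7A1, the rate-limiting enzyme of bile acid synthesis in liver, had 27 and 10, with at most 2 in its highest class.

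Among the 5 members of vitamin A and D metabolism, CYP24A1, the 24-hydroxylase that inactivates vitamin D, was highest in horizontal basal nuclei, the reserve stem cells of the epithelium, in both libraries. In the wild type library 77.7% of its UMIs lay there, at 697 CPM (620 to 780). These 299 UMIs came from 58 of 107 nuclei, with at most 26 in 1 nucleus. In the knockout library the class had 204 CPM (124 to 315), from 20 UMIs in 11 of 38 nuclei, which was 26.3% of its 76 UMIs. The log2 ratio was -1.77 (-2.51 to -1.12). In the same class CYP2A19 stood at 1964 and 377 CPM and CYP2F1 at 431 and 61.1. Of the sustentacular markers, carboxypeptidase M stood there at 347 and 153 CPM, ACSM3 at 90.9 and 0, and GLDN at 60.6 and 61.1. CYP24A1 stood at 9.27 CPM in wild type carboxypeptidase M type nuclei, below its basal level.

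CYP26B1, which clears retinoic acid, was a gene of mature neurons in the knockout library, at 25.2 CPM (19.8 to 31.7) against 12.6 (9.28 to 16.7) in the wild type. The 2 clusters of mature neurons differ in NQO1, a marker of dorsal neurons. In the cluster with low NQO1 (44.6 and 31.5 CPM) CYP26B1 stood at 11.2 (7.97 to 15.3) and 9.46 (3.47 to 20.6). In the cluster with high NQO1 (295 and 223 CPM) it had 9 UMIs, with an interval of 12.4 to 51.3 CPM, and 67 UMIs, at 29.7 CPM (23.0 to 37.7). The high cluster held 139 of 897 wild type and 793 of 923 knockout mature neurons, and within each cluster the intervals of the libraries overlap. CYP2R1, a vitamin D 25-hydroxylase, had 95 and 53 UMIs, with 14.7 and 11.7 CPM in glia from 6 and 5 UMIs. CYP27B1, which activates vitamin D, had 45 and 39 UMIs and CYP26A1 13 and 7, and neither had more than 4 in its highest class.

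CYP20A1, whose substrate is not settled, was the remaining member. It was counted in every ranked class, from 259 CPM in immature neurons to 713 (633 to 800) in glia in the wild type library and from 240 to 656 (582 to 738) in the knockout library. Its log2 ratio over all nuclei was 0.04 (-0.01 to 0.09). The lowest and the highest class were the same in both libraries.

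Within the sustentacular nuclei, 13 members had at least 20 UMIs in each type. Between the types, CYP2F1 and CYP2B6 were at least 2-fold higher in the carboxypeptidase M type in both libraries, against 0.914% of 8973 genes, and none was so in the ACSM3 and GLDN type, against 0.791%. The log2 ratio of the carboxypeptidase M type over the ACSM3 and GLDN type was 1.29 (1.14 to 1.45) and 1.55 (1.21 to 1.90) for CYP2F1, in the wild type and knockout libraries in turn. For CYP2B6 it was 1.40 (0.87 to 1.98) and 1.26 (0.81 to 1.72). CYP4V2 went the other way, at -0.95 (-1.14 to -0.76) and -0.54 (-0.86 to -0.22), as did CYP7B1 at -0.62 and -1.11. Altogether 7 members lay above 0 and 3 below 0 in both libraries, and the share of all genes doing so was not computed. Of the 7, CYP2J34 had intervals that hold 0 in both libraries (-0.29 to 1.79 and -0.58 to 1.83). Of the 3, CYP1A2 had one in the knockout library (-0.77 to 0.25).

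**Figure D3:**
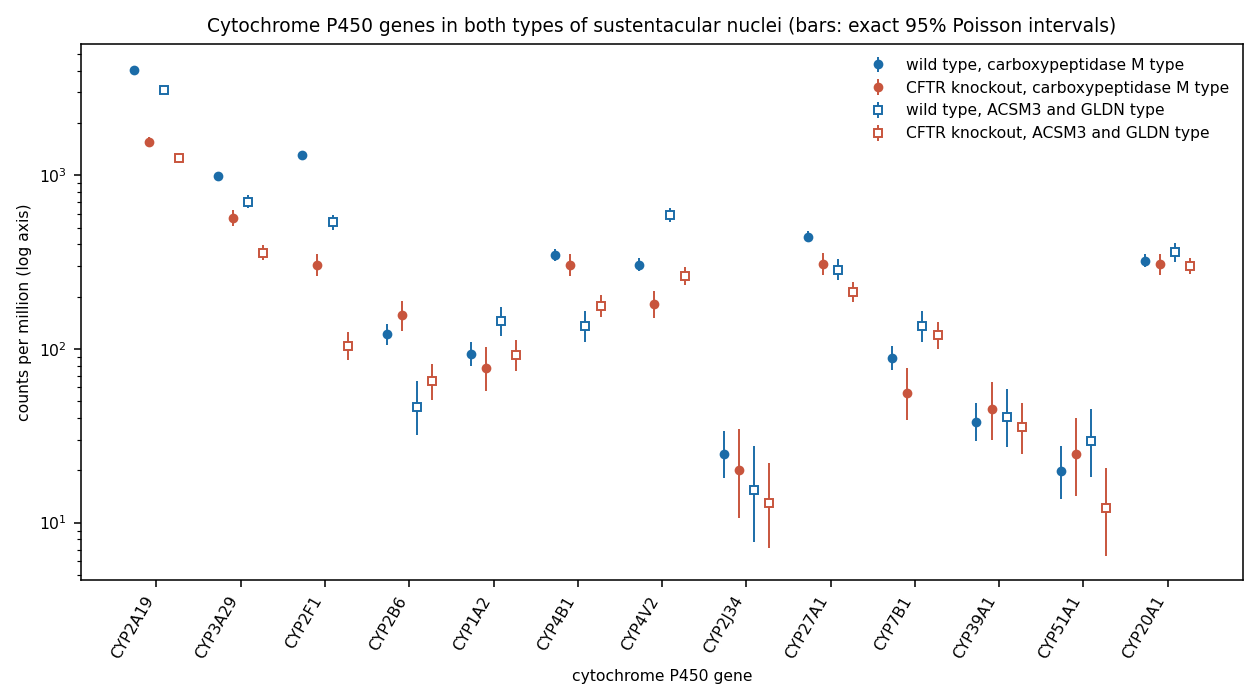
Level of the 13 P450 genes with at least 20 UMIs in each sustentacular type, in CPM on a log axis, in the carboxypeptidase M type (filled circles) and the ACSM3 and GLDN type (open squares) of the wild type (blue) and the CFTR knockout library (red); bars are exact 95% Poisson intervals. CYP2F1 lies at 1314 and 305 in the carboxypeptidase M type and at 536 and 104 in the other type, and CYP20A1 lies between 302 and 361 in all 4.

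Between the libraries, CYP2A19 and CYP2F1 were the 2 of 13 members at least 2-fold lower in the knockout carboxypeptidase M type, against 4.76% of 10110 genes, and none was 2-fold higher, against 5.60%. The median log2 ratio of the members was -0.31, against 0.09 over all genes. In the ACSM3 and GLDN type 4 of 13 were 2-fold lower (CYP2A19, CYP2F1, CYP4V2 and CYP51A1), against 2.93% of 9155 genes, and none was higher, against 6.61%. The median was -0.42 against 0.12. In the carboxypeptidase M type CYP4B1, CYP2B6 and CYP20A1 did not share the lower knockout level. Their log2 ratios there were -0.19 (-0.43 to 0.05), 0.36 (0.00 to 0.70) and -0.07 (-0.31 to 0.17). In the ACSM3 and GLDN type CYP4B1 had 136 CPM in the wild type and 177 in the knockout library, and CYP2B6 46.3 and 65.2. CYP20A1 was lower in the knockout library there, at 361 (318 to 408) and 302 (270 to 336). The libraries also differ in depth and in mitochondrial RNA, and the part of either in these ratios was not tested.

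Over all nuclei 5 of 32 members were at least 2-fold lower in the knockout library, against 3.14% of 16259 genes, and 4 were at least 2-fold higher, against 6.96%. The median was -0.07 against 0.10. The lower members were CYP2F1 at a log2 ratio of -2.30 (-2.41 to -2.18), CYP24A1 at -2.16 (-2.54 to -1.80), CYP2A19 at -1.25 (-1.29 to -1.21), and the sparse CYP7A1 at -1.82 and CYP1A1 at -1.14. The higher ones were CYP2B6, CYP4A24 at 1.33 (0.82 to 1.85), CYP4B1, and the sparse CYP46A1 at 1.14. In bulk sums of this kind fewer nuclei of a class and less RNA per nucleus cannot be told apart. With the class makeup of the wild type library CYP2F1 stood at -2.00, CYP24A1 at -1.62 and CYP2A19 at -1.15, CYP46A1 turned to -0.45, and CYP19A1 turned from 0.59 to -0.48. The sign of 7 more members turned, all with an interval over all nuclei that holds 0.

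**Figure D4:**
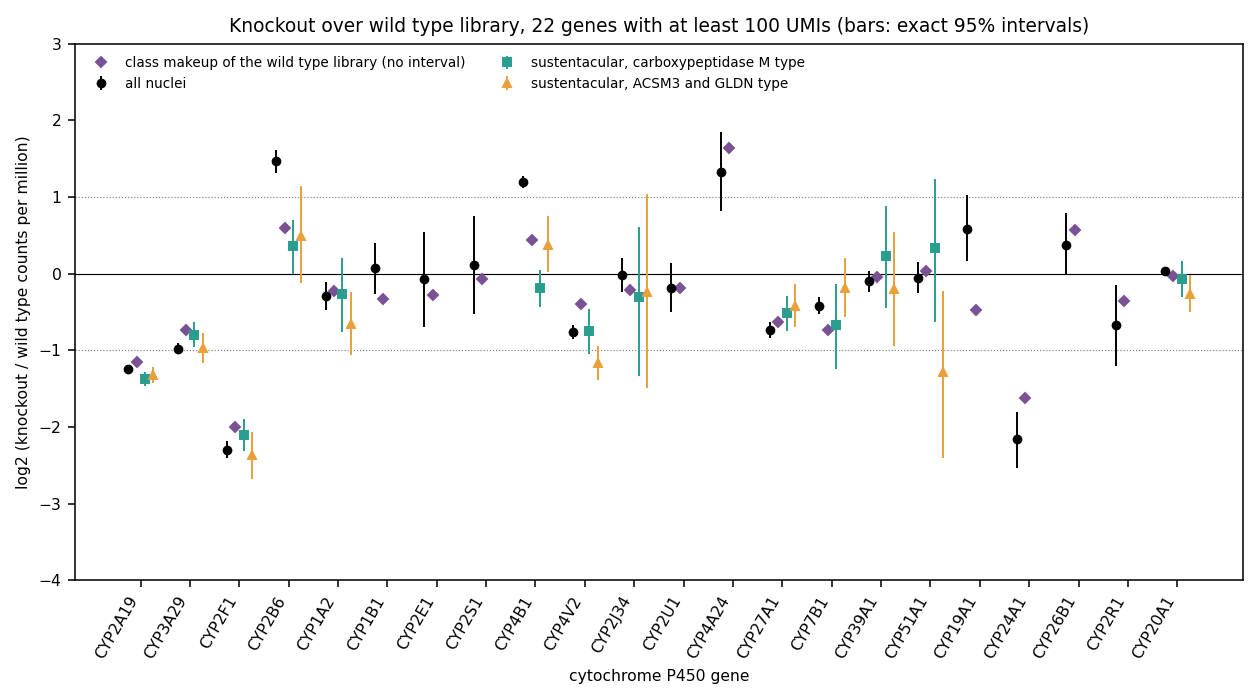
Log2 ratio of the knockout over the wild type level for the 22 P450 genes with at least 100 UMIs, over all nuclei (black), with the class makeup of the wild type library (purple, no interval), and within the carboxypeptidase M type (green) and the ACSM3 and GLDN type (orange) where a gene had at least 20 UMIs; bars are exact 95% intervals and dotted lines mark 2-fold. CYP2F1 lies below -1.90 in all 4, whereas CYP4B1 lies at 1.20 over all nuclei and at 0.44 with the wild type makeup.

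Other genes of the P450 system came from lists of electron donors, haem enzymes and regulators. POR, which passes electrons to the microsomal enzymes, was highest in the ACSM3 and GLDN type in the wild type library and in the gland class with SLC6A11 in the knockout library. POR stood at 1126 CPM (1049 to 1207) and 967 (909 to 1028) in the former, at 943 (865 to 1027) and 1045 (943 to 1155) in the latter, and at 702 (663 to 742) and 689 (627 to 756) in the carboxypeptidase M type. The log2 ratio of POR over all nuclei was 0.10 (0.03 to 0.16). ALAS1, the rate-limiting enzyme of haem synthesis, was highest in the carboxypeptidase M type in both libraries, at 1302 (1249 to 1357) and 1008 (932 to 1089). In the ACSM3 and GLDN type it stood at 1094 (1018 to 1173) and 688 (639 to 739), and over all nuclei its log2 ratio was -0.75 (-0.82 to -0.68). POR thus differed less between the libraries than CYP2A19 and CYP2F1 did, and ALAS1 lay between them, an order that was not tested.

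None of the 10 electron donors with at least 20 UMIs passed 2-fold over all nuclei, and their median log2 ratio was 0.07. Of 13 haem genes only ALAS2, the red cell form, passed it, at 1.24 from 11 and 23 UMIs, with a median of 0.08. Of 27 regulators, 3 were at least 2-fold higher and none lower, with a median of 0.14. Among them were ESR1, an oestrogen receptor, at 1.44 (1.29 to 1.59), and AHRR, the repressor of the aryl hydrocarbon receptor, at 1.61 from 10 and 27 UMIs. Over all 16259 genes 6.96% were at least 2-fold higher and 3.14% lower, and the median was 0.10.

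Members were also counted outside their main classes. In the unnamed cluster with COL1A1 and COL12A1, 10 of 14 members were at least 2-fold lower in the knockout library, against 12.1% of 9207 genes, and the sustentacular marker carboxypeptidase M stood there at 419 and 31.6 CPM, ACSM3 at 71.0 and 41.0, and GLDN at 71.9 and 25.2. In horizontal basal nuclei 6 of 11 were lower, against 11.8% of 5562 genes. The part of sustentacular RNA in these counts was not tested. Both libraries held 8 barcodes in common.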

How the data were processed

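Single-nucleus libraries were compared, 1 wild type and 1 CFTR knockout. The authors deposited 1 table per library of UMI counts (whole numbers, genes by nuclei), without normalization. The submitters' processing notes name Cell Ranger, Seurat 4.0 and R 4.0.2. The genome build and the counted part of a transcript were not given in the sources used here. Each table was tied to its sample by the code in the table's name and the sample's title. The tables held 4715 and 6054 barcodes with at least 500 UMIs each.

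Nuclei with fewer than 200 genes were removed. Doublet scores came from Scrublet in scanpy 1.11.5. The default threshold marked 1 nucleus in each library and so failed; the highest scores were removed at 0.8% per 1000 nuclei (178 and 293 nuclei). The 2000 most variable genes, without P450 genes, CFTR and mitochondrial genes, gave 30 principal components and Leiden clusters at resolution 1 (igraph 0.11.9). A cluster was named from at least 3 markers of a fixed list, unless its 10 leading genes held more markers of another type (cluster 22); the split of the sustentacular clusters was set after the data were seen, at a log2 difference of 1 between the genes CPM (carboxypeptidase M) and the geometric mean of ACSM3 and GLDN, each with 20 counts per 1000000 added. Clusters below 0.333 of their library's median depth stayed unnamed and unranked, and a ranked class had at least 30 nuclei.

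UMIs were summed by class and library. Levels have exact Poisson, shares Clopper-Pearson and ratios exact conditional binomial 95% intervals. They cover counting error only. A count of 0 was set to 3 counts in ratios. The ratio and its interval were checked on simulated counts. Every member with at least 100 UMIs is named with its values, sparser ones with totals and highest class. Of the lists of electron donors, haem enzymes and regulators, the genes with the highest levels and those past 2-fold over all nuclei are named. The value of 1 list gene is not reported here; it stays in the counts and medians. The members and lists were chosen with earlier results of these data known. Sequences were not used here. TMM factors came from edgeR 4.0.16.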

Additional observations from a re-analysis of the deposited data

Results flagged for a closer look

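CYP4B1 went in opposite directions in different classes. Its log2 ratio of the knockout over the wild type library was -0.96 (-1.14 to -0.77) in ciliated nuclei and 2.13 (1.80 to 2.47) in mature neurons. It was also above 0, with an interval that leaves out 0, in fibroblasts, glia, endothelial nuclei, macrophages, pericytes or smooth muscle, precursors and immature neurons. The mature neuron value of CYP4B1 pools clusters that the libraries fill unequally. CYP51A1 stood at 1.77 (0.52 to 3.23) in glia and at -1.28 (-2.40 to -0.22) in the ACSM3 and GLDN type of sustentacular nuclei. CYP2U1 stood at 1.36 (0.06 to 2.85) in fibroblasts and at -0.65 (-1.29 to -0.03) in mature neurons. In the 2 clusters of mature neurons, which the libraries fill unequally, CYP2U1 stood at 18.7 (14.4 to 23.8) and 31.5 CPM (19.3 to 48.7) in one and at 9.02 (1.86 to 26.3) and 5.75 (3.06 to 9.84) in the other, and the intervals of the libraries overlap in each. These differences between classes were not tested, and the pairs were chosen from many classes by their intervals. One more row, named only by a gene identifier and paired with CYP4F3 in the table of gene names, held 88 UMIs in both tables (48 in the wild type and 40 in the knockout) and lay outside the rule on symbols.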

How the results depend on the processing

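No paired analysis was possible because each genotype has 1 library. With a threshold of 100 UMIs 3 members were at least 2-fold lower over all nuclei in place of 5. The 4 members at least 2-fold higher became 0 with equal weights of the 9 classes of at least 100 nuclei and 1 with the class makeup of the wild type library. The share of all genes past 2-fold under these settings was not computed. Thinning to 1000 UMIs moved the share of carboxypeptidase M type nuclei with CYP2A19 from 98.5% to 87.1% in the wild type and from 88.5% to 70.2% in the knockout library, and that with CYP2F1 from 79.1% to 59.6% and from 29.6% to 15.1%. The other 39 alternatives of counts stayed within 1.5 times. Over all nuclei CYP19A1 and CYP46A1 changed sign, to -0.55 and -0.37 with equal class weights and to -0.48 and -0.45 with the wild type makeup, and CYP11A1 went from 0.72 to -0.03 with equal weights. Of the members whose interval over all nuclei holds 0, 7 changed sign under each weighting, CYP20A1, CYP51A1, CYP1B1, CYP2S1 and CYP2W1 under both, CYP2J34 and CYP2U1 with equal weights, and CYP27B1 and CYP2D25 with the wild type makeup. At resolution 0.5 the sustentacular types merged, and CYP2F1 stood at -2.61. With each library clustered on its own, the carboxypeptidase M type of the wild type library had fewer than 3 counted markers and stayed unnamed, so its ratios could not be recomputed. Median-ratio and TMM factors shifted every log2 ratio over all nuclei by -0.10 and -0.09; within the class, median-ratio factors moved CYP2A19 to -1.52 in the carboxypeptidase M type and -1.38 in the ACSM3 and GLDN type. Depth limits the members below 100 UMIs, whose highest class rests on 24 UMIs or fewer. The wild type ciliated and knockout horizontal basal values rest on 32 and 38 nuclei.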
